A study of Mus musculus with 16 samples.

Results

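The genes described here are 9 of the 20295 genes in the count table of a study of brown fat cells: Ffar4, Slc25a34, Tmem82, Arhgef37, Sema3g, Tle3, Rtn4rl2, Enc1 and Fzd5. They were selected from measured values of these samples, because SR-3420 raised them when no inhibitor was present and did not raise them, or lowered them, in the presence of triacsin C; targets of the hypoxia-inducible factors were left out of the choice. The values of SR-3420 against vehicle and of SR-3420 with triacsin C against triacsin C alone therefore describe the choice and were not tested. Neither etomoxir group entered the choice, and the response to SR-3420 with etomoxir was the only member contrast tested. All 9 genes passed the filter on low counts, as did 12786 genes of the table.

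All samples came from BAT-LgT cells, a wild-type mouse brown preadipocyte line that the large T antigen of SV40 made immortal, studied on day 7 of differentiation in culture. The cells received vehicle, 5 µM triacsin C (TC) or 50 µM etomoxir (ETO) for 1 h, and SR-3420 was then present or absent for 3 h. The labels give its dose as 10 µM, which differs from that in the study's figure legend. RNA-seq reads were counted for vehicle (n = 2, replicates 2 and 3), SR-3420 (n = 2, replicates 1 and 3), and TC, TC+SR-3420, ETO and ETO+SR-3420 (n = 3 each). Vehicle replicate 1 and SR-3420 replicate 2 were not analysed here. The samples held between 9452861 (TC replicate 1) and 25670624 (ETO+SR-3420 replicate 1) counts. The methods describe the RNA-seq as independent experiments on the 1 cell line, so the spread between samples is that between cultures of this line.

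Lipolysis is the release of fatty acids from the triglycerides of lipid droplets. SR-3420 starts it by binding ABHD5, which is then free to activate the lipase ATGL, without a signal through β-adrenergic receptors. A fatty acid must be joined to coenzyme A by acyl-CoA synthetases before it can be esterified or oxidised, and triacsin C blocks several of these enzymes. Etomoxir acts later, on carnitine palmitoyltransferase 1, which passes long-chain acyl groups on for transport into mitochondria. Fatty acids also act as signals in adipocytes, through receptors on the cell surface and through nuclear receptors of the PPAR family.

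The 9 genes did not behave as a single group. Levels are given as CPM, in which a gene's counts are divided by those of the whole sample, scaled between samples by the TMM method. In the absence of inhibitor every SR-3420 sample lay above every vehicle sample for all 9, which the choice fixed; among all genes tested 22.8% were so separated, and 4.75% passed the test as raised and 2.79% as lowered. These 607 and 357 calls depend on the fit, with 896 and 708 by DESeq2, 45 and 1 when only the compared groups were used, and 194 to 364 and 69 to 140 when 1 of the 4 samples was left out. With TC, every SR-3420 sample lay below every sample without it for 5 of the 9 (Ffar4, Slc25a34, Tmem82, Enc1 and Fzd5), the samples overlapped for 3 (Arhgef37, Sema3g and Tle3), and for 1, Rtn4rl2, they all lay above. The description of the choice therefore does not hold for Rtn4rl2, whose mean level was 2.25-fold higher with SR-3420 in the presence of TC. Across all genes tested 28.5% were separated downwards and 27.4% upwards in that comparison, and 19.7% passed the test as lowered and 17.3% as raised. The plot of each gene's level in every sample shows these patterns.

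**Figure D1:**
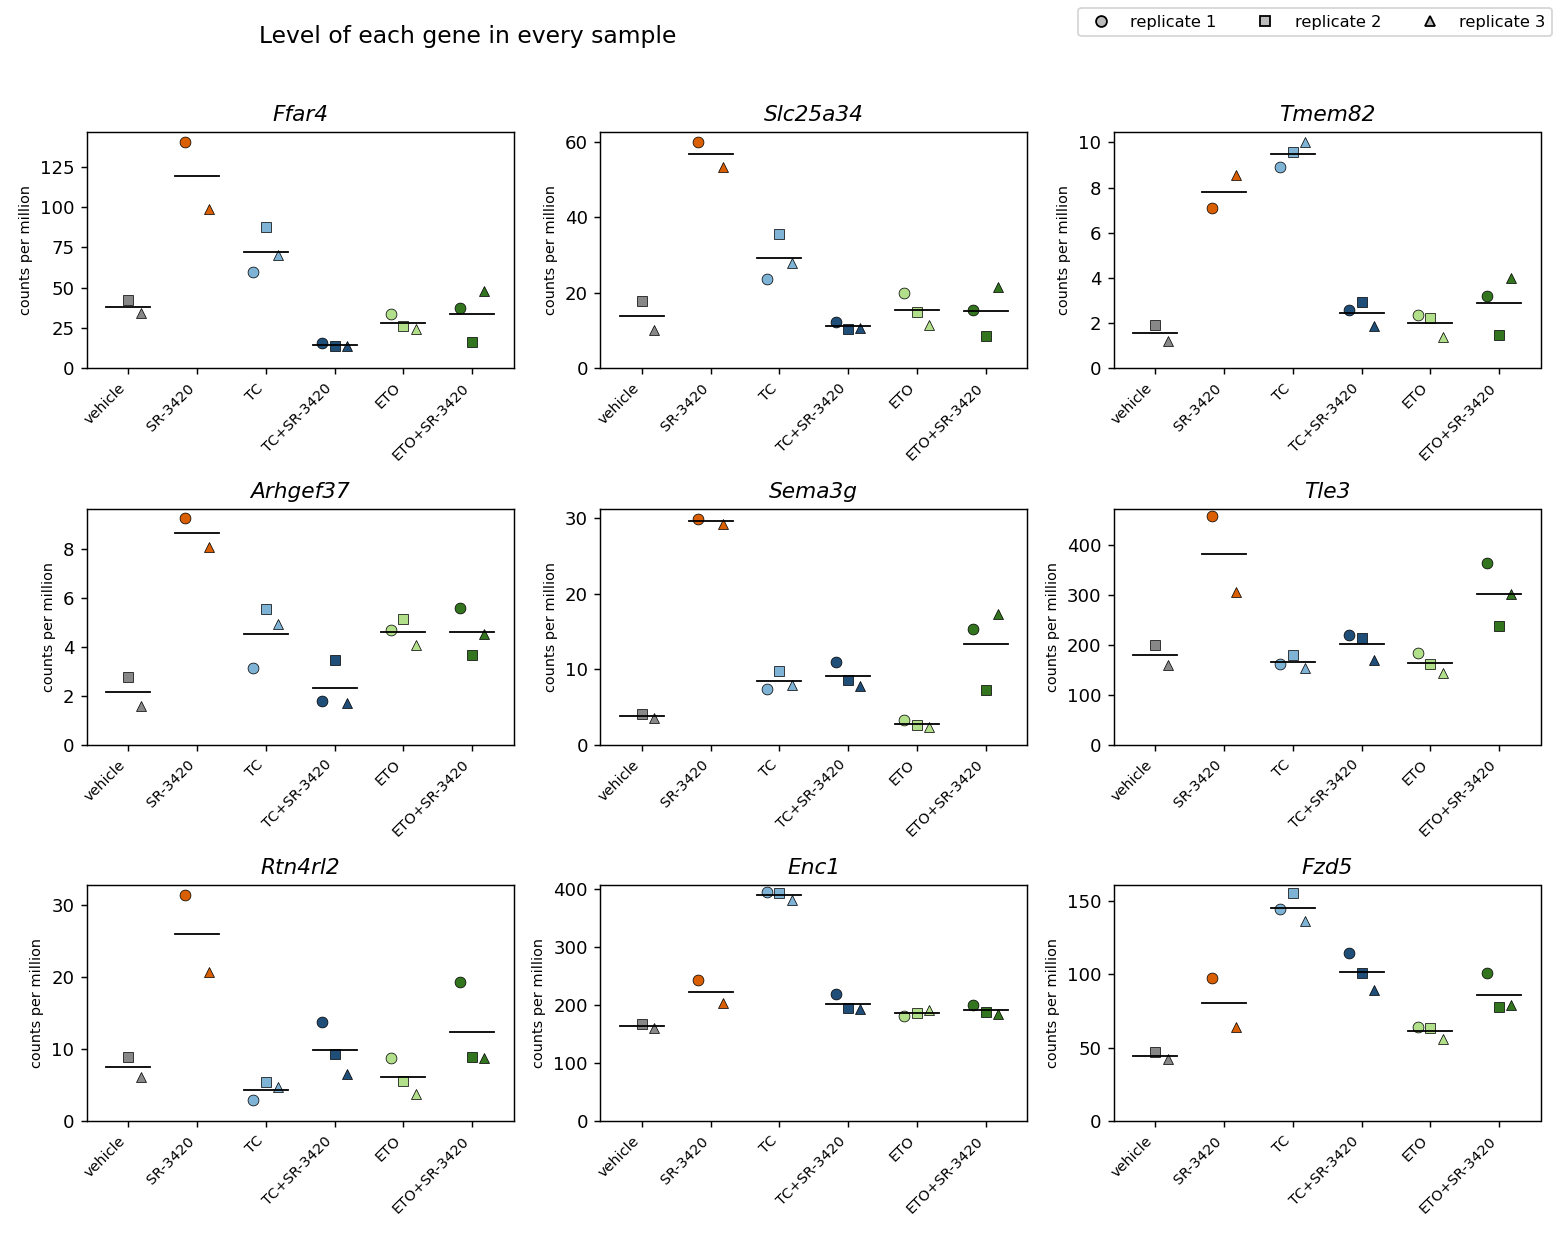
Level of each of the 9 genes, in CPM, in the 16 samples by group; symbols mark the replicate number and lines the group mean. TC+SR-3420 lay below TC for Ffar4, Slc25a34, Tmem82, Enc1 and Fzd5, and above it for Rtn4rl2.

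Within ETO+SR-3420, replicate 2 had the lowest level of 7 of the 9 genes, all but Rtn4rl2 and Enc1. It also had the lowest summed level of the adipocyte markers described further on. The response with etomoxir is therefore given with and without this sample.

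Ffar4 encodes a cell surface receptor for long-chain fatty acids, also known as GPR120. On the mm9 build it lies at chr19:38171569-38188753 on the plus strand, where the annotation of that build gives it 3 exons under its older symbol. Its level was 42.1 and 34.2 CPM with vehicle and 140.1 and 98.8 CPM with SR-3420. With TC alone it was 59.4, 87.3 and 70.3 CPM, and with TC+SR-3420 it was 15.6, 13.6 and 13.6 CPM. The gene was thus higher than with vehicle in each sample given TC alone or SR-3420 alone, and lower than with vehicle in each sample given both. The log2 fold change with SR-3420 was 1.65 (SE 0.37) without inhibitor and -2.34 (SE 0.32) with TC, and that of TC+SR-3420 against SR-3420 was -3.06 (SE 0.34). With ETO the level was 33.4, 26.1 and 24.7 CPM, all below vehicle, and with ETO+SR-3420 it was 37.5, 16.3 and 48.2 CPM. In the order of group means TC+SR-3420 came last, below ETO, and none of its samples reached the lowest of any other group. The samples of ETO+SR-3420 spanned those of both vehicle and ETO.

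Slc25a34 belongs to the family of mitochondrial carriers, which move metabolites across the inner membrane. It lies at chr4:141174740-141179749 on the minus strand (mm9) and has 5 exons. Its level was 17.8 and 10.1 CPM with vehicle, 59.96 and 53.3 CPM with SR-3420, 23.8, 35.6 and 27.9 CPM with TC, and 12.3, 10.5 and 10.8 CPM with TC+SR-3420. The pattern was that of Ffar4, except that the TC+SR-3420 samples overlapped vehicle in place of lying below it. Its log2 fold change with SR-3420 was 2.02 (SE 0.39) without inhibitor and -1.38 (SE 0.31) with TC. With ETO it stood at 19.8, 15.0 and 11.4 CPM and with ETO+SR-3420 at 15.5, 8.62 and 21.5 CPM. The vehicle, TC+SR-3420, ETO and ETO+SR-3420 samples lay in 1 overlapping band, under those of TC and SR-3420.

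Across the 16 samples the log2 levels of Ffar4 and Slc25a34 had the highest Pearson correlation of any pair among the 9 genes (r = 0.93), in a set of samples that fall into 6 groups. Their promoters are shown for that reason. Promoter sequences of RefSeq, 250 bases before to 50 after the gene start on the build GRCm38.p6, were matched for 6 of the 9 genes: Ffar4, Slc25a34, Sema3g, Tle3, Rtn4rl2 and Fzd5. Each was searched on both strands for the nuclear receptor site AGGTCA, and for a direct repeat of it with 1 base between the copies, the form to which PPARs bind with RXR, allowing 2 mismatches. None of the 6 promoters held the direct repeat, which was found in 3.86% of the 32851 promoters of the table. Slc25a34 was the only 1 of the 6 to hold the single site, found in 16.3% of all promoters. It is read on the other strand and marked in capitals. The sequences are from chr19:38096829-38097128 (plus strand) and chr4:141623785-141624084 (minus strand), written 5′ to 3′. A match describes the letters only.
Ffar4: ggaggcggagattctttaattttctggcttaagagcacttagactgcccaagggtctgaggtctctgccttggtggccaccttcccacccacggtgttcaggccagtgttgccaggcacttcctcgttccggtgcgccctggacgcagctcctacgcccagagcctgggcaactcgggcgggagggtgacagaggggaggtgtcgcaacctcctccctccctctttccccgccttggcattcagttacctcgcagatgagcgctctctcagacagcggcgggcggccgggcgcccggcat
Slc25a34: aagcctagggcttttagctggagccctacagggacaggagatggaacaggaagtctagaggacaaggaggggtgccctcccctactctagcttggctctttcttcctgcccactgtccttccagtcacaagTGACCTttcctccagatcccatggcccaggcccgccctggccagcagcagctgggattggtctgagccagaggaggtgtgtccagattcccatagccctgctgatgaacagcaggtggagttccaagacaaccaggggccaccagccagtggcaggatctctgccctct

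Tmem82, which encodes a protein with predicted membrane-spanning segments, is the direct neighbour of Slc25a34. It lies at chr4:141170148-141174548 (mm9), on the same strand, has 6 exons and begins 191 bases beyond the end of Slc25a34, with no overlap. The gene was expressed at a low level, with 13 to 140 counts per sample. Vehicle gave 1.90 and 1.20 CPM and SR-3420 gave 7.07 and 8.57 CPM. TC alone gave 8.92, 9.57 and 10.0 CPM, and TC+SR-3420 gave 2.56, 2.95 and 1.88 CPM. All TC samples were thus above both SR-3420 samples, unlike for Slc25a34, and all TC+SR-3420 samples were below them. Its log2 fold change was 2.31 (SE 0.41) with SR-3420, 2.59 (SE 0.39) with TC alone and -1.94 (SE 0.32) with SR-3420 in the presence of TC. With ETO it was 2.37, 2.21 and 1.41 CPM and with ETO+SR-3420 3.21, 1.46 and 4.00 CPM, groups that overlapped each other.

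Per length of the counted gene, the level of Tmem82 was 17.1% and 19.1% of that of Slc25a34 with vehicle, 18.9% and 25.8% with SR-3420, and 60.3%, 43.1% and 57.6% with TC. It was 33.4%, 45.3% and 27.9% with TC+SR-3420, 19.2%, 23.7% and 19.9% with ETO, and 33.3%, 27.2% and 29.8% with ETO+SR-3420. The level of Tmem82 was thus no fixed share of that of its neighbour, and every TC sample had a higher share than every vehicle, SR-3420, ETO and ETO+SR-3420 sample.

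The other genes with bodies within 100 kb did not show the pattern of Slc25a34 and Tmem82. Fblim1, which encodes a filamin-binding protein and lies 8180 bases from Tmem82 on its other side, rose with SR-3420 by log2 fold changes of 1.24 (SE 0.19, edgeR adjusted p = 0.00169) without inhibitor, 1.09 (SE 0.15, edgeR adjusted p = 0.000141) with TC and 1.101 (SE 0.15, edgeR adjusted p = 0.000259) with ETO. Plekhm2, 1899 bases from Slc25a34, passed the test in none of the 3 comparisons (log2 fold changes 0.87, 0.25 and 0.44, in that order; edgeR adjusted p from 0.115 to 0.465). The same was so for Spen (-0.02, -0.24 and -0.28), Ddi2 (0.29, 0.00 and 0.33) and Rsc1a1 (0.68, -0.02 and -0.23). The body of Rsc1a1 lies within that of Ddi2, and their mean levels were 0.54 and 53.1 CPM. How reads of the shared stretch were assigned was not tested.

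**Figure D2:**
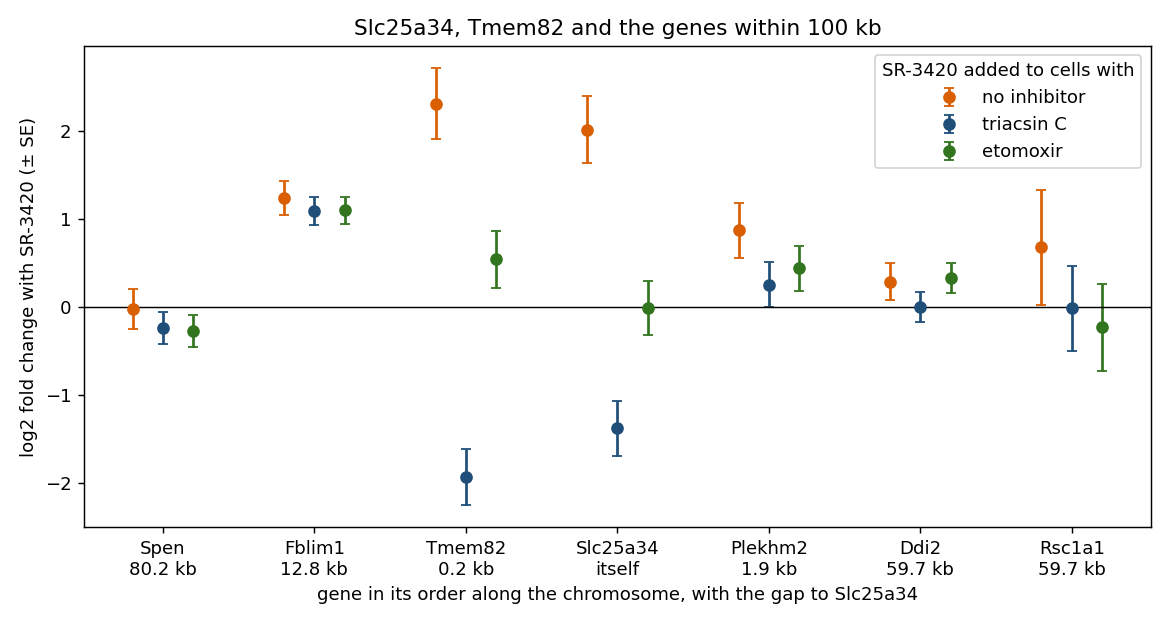
Log2 fold change with SR-3420, with its standard error, for Slc25a34, Tmem82 and the genes within 100 kb, in their order along the chromosome, alone or combined with either inhibitor. With triacsin C the values of Slc25a34 (-1.38) and Tmem82 (-1.94) are the lowest, while Fblim1 lies between 1.09 and 1.24 throughout.

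Arhgef37 encodes a member of a family of guanine nucleotide exchange factors. It lies at chr18:61653448-61696190 (mm9, minus strand), has 13 exons and had between 17 and 157 counts per sample. Its level was 2.78 and 1.57 CPM with vehicle, 9.26 and 8.06 CPM with SR-3420, 3.12, 5.54 and 4.93 CPM with TC, and 1.79, 3.46 and 1.69 CPM with TC+SR-3420. The TC+SR-3420 samples overlapped those of vehicle and, through replicate 2, those of TC. Its log2 fold change with SR-3420 was 1.97 (SE 0.38) without inhibitor and -0.98 (SE 0.32) with TC. ETO gave 4.67, 5.13 and 4.06 CPM and ETO+SR-3420 gave 5.58, 3.65 and 4.53 CPM. Both etomoxir groups thus lay above vehicle and below SR-3420, and overlapped each other.

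Enc1 and Fzd5 shared with Tmem82 a level with TC alone above that with SR-3420 alone, and differed from the genes above in that TC+SR-3420 overlapped SR-3420 alone. Enc1 encodes a protein with a BTB domain and kelch repeats that is known from the nervous system and from adipocyte differentiation, and lies at chr13:98011060-98022995 (mm9, plus strand, 3 exons). Its level was 168 and 161 CPM with vehicle, 243 and 203 CPM with SR-3420, 395, 392 and 381 CPM with TC, and 219.8, 194 and 194 CPM with TC+SR-3420. Every TC sample was thus far above both SR-3420 samples, and TC+SR-3420 overlapped SR-3420 alone. The log2 fold change with SR-3420 without inhibitor was the smallest of the 9 (0.44, SE 0.12), and that with TC was -0.94 (SE 0.10), beside 1.24 (SE 0.12) for TC alone against vehicle. ETO gave 182, 186 and 191 CPM, above both vehicle samples, and ETO+SR-3420 gave 199.8, 188 and 185 CPM, which overlapped ETO.

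Fzd5 encodes a Frizzled protein, a receptor for Wnt ligands, and lies at chr1:64777132-64784324 (mm9, minus strand, 2 exons). Its level was 47.1 and 42.1 CPM with vehicle, 97.2 and 64.3 CPM with SR-3420, 144, 155 and 136 CPM with TC, and 114, 101 and 89.0 CPM with TC+SR-3420. As for Enc1, all TC samples were above both SR-3420 samples; the TC+SR-3420 samples stayed above both vehicle samples and overlapped SR-3420. The log2 fold change was 1.70 (SE 0.19) with TC alone, 0.86 (SE 0.20) with SR-3420, and -0.52 (SE 0.16) with SR-3420 in the presence of TC. The value with SR-3420 alone was 0.53 without SR-3420 replicate 1 and 1.12 without SR-3420 replicate 3. With ETO the level was 64.2, 63.7 and 55.7 CPM and with ETO+SR-3420 101.1, 77.6 and 79.3 CPM. Here all ETO samples were above vehicle and all ETO+SR-3420 samples above ETO.

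Sema3g, Tle3 and Rtn4rl2 are the remaining genes, and their samples with TC+SR-3420 overlapped those with TC or lay above them. Sema3g encodes a secreted class 3 semaphorin, a family of guidance cues that signal through neuropilins and plexins, and lies at chr14:32031059-32042697 (mm9, plus strand, 16 exons). Its level was 4.09 and 3.50 CPM with vehicle, 29.9 and 29.3 CPM with SR-3420, 7.42, 9.78 and 7.96 CPM with TC, and 11.0, 8.60 and 7.79 CPM with TC+SR-3420. The difference between SR-3420 and vehicle was the largest of the 9 on the log2 scale (2.95, SE 0.35), whereas TC and TC+SR-3420 overlapped (0.12, SE 0.27, and -0.04 without TC+SR-3420 replicate 1) at levels above vehicle and below SR-3420. With ETO it was 3.23, 2.61 and 2.32 CPM, all below vehicle, and with ETO+SR-3420 15.3, 7.23 and 17.3 CPM, all above ETO.

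Tle3 encodes a corepressor of the Groucho family, which acts with DNA-binding factors and is known for a role with PPARγ in adipocyte differentiation. It lies at chr9:61220173-61266304 (mm9, plus strand), has 20 exons in the transcript with the longest coding part, and was among the more abundant of the 9, with 1511 to 9111 counts per sample. Its level was 201 and 161 CPM with vehicle, 458 and 306 CPM with SR-3420, 162, 179.5 and 155 CPM with TC, and 221, 215 and 170.2 CPM with TC+SR-3420. The TC samples overlapped vehicle, and TC+SR-3420 overlapped TC (log2 fold change 0.29, SE 0.19). With ETO it was 184, 162 and 145 CPM and with ETO+SR-3420 366, 239 and 302 CPM, which overlapped SR-3420 alone. The log2 fold change with SR-3420 was 1.08 (SE 0.23) without inhibitor.

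Rtn4rl2 encodes a receptor of the Nogo receptor family, which is anchored to the cell membrane, and lies at chr2:84712103-84726849 (mm9, minus strand, 3 exons). Its level was 8.92 and 6.09 CPM with vehicle, 31.4 and 20.7 CPM with SR-3420, 3.01, 5.40 and 4.70 CPM with TC, and 13.8, 9.28 and 6.57 CPM with TC+SR-3420. It was the only 1 of the 9 with every TC sample below vehicle, and every TC+SR-3420 sample was above TC and below SR-3420. The log2 fold change with SR-3420 was 1.79 (SE 0.49) without inhibitor and 1.17 (SE 0.41) with TC. The difference between these 2 responses was -0.62 (SE 0.63), beside values from -4.25 (Tmem82) to -0.79 (Tle3) for the other genes. With ETO it was 8.82, 5.61 and 3.81 CPM and with ETO+SR-3420 19.4, 8.91 and 8.77 CPM, which overlapped through ETO replicate 1.

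Tle3 and Rtn4rl2 were the pair with the second highest correlation across the 16 samples (r = 0.91), and their promoters are shown beside those of Ffar4 and Slc25a34. They are the windows chr9:61372116-61372415 (plus strand) and chr2:84886643-84886942 (minus strand) of GRCm38.p6, 5′ to 3′. Neither holds AGGTCA, so that no letters are in capitals.
Tle3: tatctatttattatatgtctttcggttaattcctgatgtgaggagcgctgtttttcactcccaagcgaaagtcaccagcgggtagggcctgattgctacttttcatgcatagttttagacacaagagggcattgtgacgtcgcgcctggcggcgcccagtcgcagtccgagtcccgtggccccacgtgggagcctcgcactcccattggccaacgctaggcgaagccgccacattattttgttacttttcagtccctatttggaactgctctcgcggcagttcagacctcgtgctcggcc
Rtn4rl2: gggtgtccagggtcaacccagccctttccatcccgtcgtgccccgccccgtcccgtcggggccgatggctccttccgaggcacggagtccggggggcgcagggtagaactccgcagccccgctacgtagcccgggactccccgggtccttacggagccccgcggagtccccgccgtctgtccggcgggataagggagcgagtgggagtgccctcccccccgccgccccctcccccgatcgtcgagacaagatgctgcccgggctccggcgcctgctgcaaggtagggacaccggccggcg

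With etomoxir, which blocks a later step than triacsin C, SR-3420 raised 3 of the 9 genes and lowered 0 in the test across all genes (edgeR quasi-likelihood test with Benjamini-Hochberg adjustment, adjusted p under 0.05). Of the 12786 genes tested 12.5% were raised and 12.8% lowered in this comparison. At an unadjusted p under 0.05 the counts for the 9 genes were 4 and 0, and with DESeq2 they were also 4 and 0. Sema3g rose by a log2 fold change of 2.28 (SE 0.29, edgeR adjusted p = 0.000131), which is 4.87-fold, with 3 of 3 samples above all ETO samples. Tle3 rose by 0.89 (SE 0.19, edgeR adjusted p = 0.00419), or 1.85-fold, also with 3 of 3 samples above ETO. Fzd5 rose by 0.49 (SE 0.16, edgeR adjusted p = 0.0411), with 3 of 3 samples above ETO. The call of Fzd5 was lost when ETO replicate 1, 2 or 3 or ETO+SR-3420 replicate 1 or 2 was left out (edgeR adjusted p from 0.0558 to 0.141).

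The other 6 genes did not pass that test. Rtn4rl2 had a log2 fold change of 1.02 (SE 0.40, edgeR adjusted p = 0.0758), and passed with DESeq2 (adjusted p = 0.0442) and without ETO replicate 1 (edgeR adjusted p = 0.0393). Its value was 0.53 (edgeR adjusted p = 0.326) without ETO+SR-3420 replicate 1 and 0.78 (edgeR adjusted p = 0.190) without ETO replicate 3. Values were 0.54 (SE 0.33, edgeR adjusted p = 0.255) for Tmem82, 0.28 (SE 0.30, edgeR adjusted p = 0.547; -0.06 without ETO+SR-3420 replicate 3) for Ffar4 and 0.04 (SE 0.10, edgeR adjusted p = 0.840) for Enc1. Slc25a34 (-0.01, interval from -0.62 to 0.59) and Arhgef37 (-0.00, interval from -0.59 to 0.58) had values near 0. Without ETO+SR-3420 replicate 2, the calls were 2 of 9, Sema3g (2.57) and Tle3 (1.03). The values of Ffar4 (0.61, edgeR adjusted p = 0.0750), Tmem82 (0.84, edgeR adjusted p = 0.0554), Slc25a34 (0.26) and Arhgef37 (0.13) were then higher and did not pass.

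The median log2 fold change of the 9 genes with SR-3420 was 1.79 without inhibitor, -0.94 with TC and 0.49 with ETO, beside medians over all genes tested of -0.00, 0.02 and 0.01. The value with ETO was 0.26 without ETO+SR-3420 replicate 3 and 0.61 without ETO+SR-3420 replicate 2. TC alone against vehicle gave a median of 1.06, with 7 of the 9 above vehicle in every sample, and ETO alone gave 0.14 (-0.21 without vehicle replicate 3), with 3 above and 2 below. Over all genes tested, 24.4% were above vehicle in every sample with TC, and with ETO 4.54% were above and 5.19% below. Compared with SR-3420 alone, the levels of 7 of the 9 were lower in every sample with TC+SR-3420, all but Enc1 and Fzd5, and of 7 with ETO+SR-3420, all but Tle3 and Fzd5; on the scale of DESeq2's size factors Enc1 overlapped SR-3420 too. Of all genes tested 18.9% and 11.5% were lower in every sample in these comparisons. TC against vehicle and TC+SR-3420 against SR-3420 consist only of groups that entered the choice of the genes, so their counts partly follow from it. The comparisons with ETO and ETO+SR-3420 share the vehicle or the SR-3420 samples with the choice and with those comparisons. The response with ETO minus that without inhibitor ran from -2.03 (SE 0.49) for Slc25a34 to -0.19 (SE 0.30) for Tle3, where it was 0.13 without SR-3420 replicate 1. Since the genes were chosen for a high response without inhibitor, negative values are favoured by the choice.

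**Figure D3:**
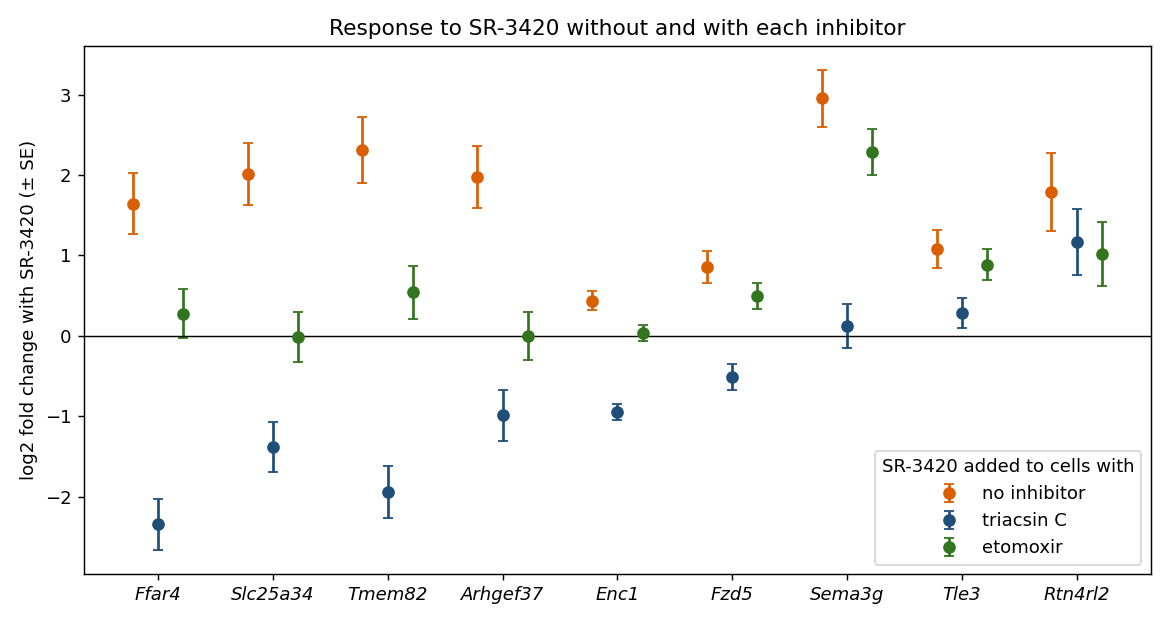
Log2 fold change of each of the 9 genes with SR-3420, with its standard error, alone or combined with either inhibitor. With triacsin C the values run from -2.34 (Ffar4) to 1.17 (Rtn4rl2), and with etomoxir from -0.01 (Slc25a34) to 2.28 (Sema3g).

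Genes that work with the 9 or are related to them were counted from fixed lists, with the 9 themselves left out. Beside these counts stand the shares over all genes given above, 4.75% raised and 2.79% lowered without inhibitor, 17.3% and 19.7% with TC, and 12.5% and 12.8% with ETO. Of 9 tested genes for fatty acid receptors, their G proteins and arrestins, SR-3420 raised 0 and lowered 0 without inhibitor by edgeR. In that comparison 1 was raised at an unadjusted p under 0.05, and 0 with DESeq2. With TC, SR-3420 raised 1 and lowered 1 (2 and 2 at an unadjusted p under 0.05, 2 and 1 with DESeq2). With ETO, SR-3420 raised 0 and lowered 1 (0 and 2 both at an unadjusted p under 0.05 and with DESeq2). The receptor Ffar2, for short-chain fatty acids, had a change of -0.57 with TC (log2 scale, SE 0.21, edgeR adjusted p = 0.0481) and of -1.09 with ETO (SE 0.21, edgeR adjusted p = 0.00208). Gnaq, the α subunit of a G protein that couples to Ffar4, rose with TC (log2 fold change 0.89, SE 0.12, edgeR adjusted p = 0.000108). Ffar1, which like Ffar4 is a G protein-coupled receptor for long-chain fatty acids, had 0 or 1 count per sample and did not pass the filter, and the fatty acid translocase Cd36 passed the test in none of the 3 comparisons (-0.18, -0.72 and -0.45).

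For the Wnt pathway and the TLE corepressors, 34 genes were tested beside Fzd5 and Tle3. SR-3420 raised 0 and lowered 0 of them without inhibitor (edgeR; 5 and 0 at an unadjusted p under 0.05, 0 and 0 with DESeq2), 7 and 3 with TC (20.6% and 8.82%), and 4 and 1 with ETO (11.8% and 2.94%). The shares raised with either inhibitor were thus near those over all genes and the shares lowered were smaller, and the median log2 fold change of the list was 0.23, 0.18 and 0.11. Of the 8 other Frizzled receptors tested 3 fell with TC, where Fzd5 too was lower with SR-3420 than without: Fzd4 (-1.76; log2 scale, SE 0.17, edgeR adjusted p = 1.3e-05), Fzd9 (-1.34, SE 0.34) and Fzd8 (-1.04, SE 0.37). Znrf3, which removes Frizzled receptors from the membrane, rose by 1.01 (SE 0.19, edgeR adjusted p = 0.00114). With ETO, 2 relatives of Tle3 rose with it, Tle2 (1.20, SE 0.39, edgeR adjusted p = 0.0400) and Tle6 (1.097, SE 0.34, edgeR adjusted p = 0.0298). The other relatives in the list, Tle1 (0.11), Tle4 (-0.29) and Aes (-0.04), did not pass with ETO. Tle2 had values of 1.05 without inhibitor and 0.94 with TC that did not pass, and Tle6 had 14 to 138 counts per sample. Sfrp1 (0.81, SE 0.14) and Lef1 (0.74, SE 0.15) also rose with ETO, and both rose with TC too (0.55, SE 0.14, and 0.79, SE 0.15). Fzd4 fell with ETO as well (-0.69, SE 0.17, edgeR adjusted p = 0.00950), where Fzd5 rose.

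Among 17 tested semaphorins, neuropilins, plexins and genes of the Nogo receptor system, SR-3420 raised 2 without inhibitor (11.8%), 7 with TC (41.2%) and 3 with ETO (17.6%), and lowered 0 in each (edgeR; also 0 at an unadjusted p under 0.05 and with DESeq2). Sema3e, of the same class as Sema3g, rose in all 3, by 1.39 (SE 0.26), 1.44 (SE 0.21) and 1.43 (SE 0.21), where Sema3g had a value of 0.12 with TC. Nrp2, a neuropilin, also rose in all 3, by 0.46 (SE 0.12), 0.69 (SE 0.09) and 0.80 (SE 0.09). Tnfrsf19 (2.56, SE 0.80), Sema3d (1.22, SE 0.35) and Sema3c (0.98, SE 0.28) rose with TC, and Rtn4 (0.57, SE 0.19), which encodes Nogo, with ETO. Tnfrsf19 had a low level, with 0 to 15 counts per sample. Of the 10 tested relatives of Slc25a34, Arhgef37 and Enc1, 1 fell without inhibitor, 6 fell and 1 rose with TC, and 2 fell with ETO. The carrier closest to Slc25a34, Slc25a35, fell in all 3 comparisons (-1.49, SE 0.23; -1.41, SE 0.20 and -2.01, SE 0.19, on the log2 scale), opposite to the direction of Slc25a34 without inhibitor. Slc25a10 (-1.15, SE 0.35), Klhl25 (-1.19, SE 0.35) and Keap1 (-1.37, SE 0.33) fell with TC, and Slc25a27 fell with both TC (-0.87, SE 0.24) and ETO (-0.75, SE 0.24).

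The PPAR targets of fatty acid metabolism, 34 of which were tested, gave 7 raised and 1 lowered without inhibitor, 4 raised and 20 lowered with TC, and 4 raised and 12 lowered with ETO. With only the compared groups 3 were raised without inhibitor and 4 lowered with ETO, and 5 were lowered with ETO without ETO+SR-3420 replicate 2. Their median log2 fold change was -0.01, -0.85 and -0.45. Fgf21 rose in all 3 comparisons (3.70, 2.13 and 1.62), as did Pdk4 (2.25, 1.19 and 1.61), Plin2 (2.10, 1.23 and 1.43) and Angptl4 (2.10, 0.87 and 1.57). Fgf21 had 6 to 245 counts per sample, and its mean with vehicle was 0.72 CPM. With TC the largest falls were those of Cpt2 (-1.93), Ehhadh (-1.83) and Ucp3 (-1.63), enzymes of fatty acid oxidation and an uncoupling protein. The values of Ffar4, Slc25a34, Tmem82 and Arhgef37 with TC, from -2.34 to -0.98, thus lay beside a list of which most tested genes were lowered in the same comparison.

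Markers of the cell type also moved with the groups. All 8 adipocyte markers were in the table and detected, led by Cfd and Fabp4, with Lep at 2 to 38 counts. Their summed level was 32608 and 23532 CPM with vehicle, 28480 and 17500 CPM with SR-3420, 29889, 39000 and 29736 CPM with TC, and 11265, 10389 and 9111 CPM with TC+SR-3420. It was 32315, 24667 and 21714 CPM with ETO and 15395, 8464 and 12948 CPM with ETO+SR-3420, so that it was lower with SR-3420 in every sample of both inhibitors. Of the 8 genes 1 fell with SR-3420 without inhibitor, Pparg (-0.82, SE 0.21, edgeR adjusted p = 0.0327), 6 fell with TC (edgeR), all but Pparg (0.01) and Lep (0.23), and 6 with ETO, all but Lipe (-0.50) and Lep (0.74). Of the 8 brown adipocyte markers, Dio2 had 0 to 2 counts and Ucp1 5 to 57 counts per sample. Adrb3 was the most abundant, and the sum ran from 200.1 to 291 CPM with TC+SR-3420, against 379 to 532 CPM with TC, 251 to 413 CPM with ETO+SR-3420, 500.4 to 803 CPM with ETO, 592 to 935 CPM with SR-3420 and 651 to 991 CPM with vehicle. The sum is mostly that of Adrb3, which fell with SR-3420 in the presence of TC (-0.89, SE 0.32, edgeR adjusted p = 0.0409) and ETO (-1.23, SE 0.32, edgeR adjusted p = 0.0128). With TC, Elovl3 (-0.77, SE 0.27, edgeR adjusted p = 0.0427) and Cox7a1 (-0.74, SE 0.23, edgeR adjusted p = 0.0207) fell too, whereas Prdm16 rose (0.74, SE 0.26, edgeR adjusted p = 0.0431), and Ucp1 had values of 0.75 with TC and 1.11 with ETO that did not pass. Fewer adipocytes and less of these RNAs per adipocyte cannot be told apart in such samples.

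The 7 markers of preadipocytes or fibroblasts, all detected and led by Col1a1, summed to 1616 and 1333 CPM with vehicle and 3732 and 2578 CPM with SR-3420. They summed to 1687 to 2266 CPM with TC, 2679 to 4202 CPM with TC+SR-3420, 880.5 to 1999 CPM with ETO and 2019 to 4378 CPM with ETO+SR-3420, higher with SR-3420 in each arm. No marker of this list passed the test without inhibitor. Col1a1 did not pass with TC either (0.90, edgeR adjusted p = 0.0525), where Pdgfra, Thy1 and Cd34 passed as raised. With ETO, Col1a1 passed as raised (1.27, edgeR adjusted p = 0.0160), as did Pdgfra, Thy1 and Ly6a. Beside the lower levels of Ffar4, Slc25a34, Tmem82, Enc1 and Fzd5 with TC+SR-3420 than with TC stood a lower adipocyte sum, and beside the higher level of Rtn4rl2 a higher fibroblast sum. Such pairs did not hold throughout. With ETO the adipocyte sum was also lower with SR-3420, while Sema3g, Tle3 and Fzd5 passed as raised and Enc1 had a value of 0.04. With TC alone Rtn4rl2 lay below vehicle, while the fibroblast sum lay above it. For all these markers, their part in the result was not tested. The sums were at most 13.3 CPM for 4 myoblast markers, 3.58 CPM for 4 endothelial markers and 17.9 CPM for the 4 macrophage markers in the table, of which Cd68 was the most abundant; Myf5 and Emr1 had at most 1 and 3 counts. The macrophage sum was highest with TC (16.2 to 17.9 CPM). The plot of the mean z-score of the 9 genes beside these sums gives both for every sample, and the high scores with SR-3420 alone follow from the choice of the genes.

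**Figure D4:**
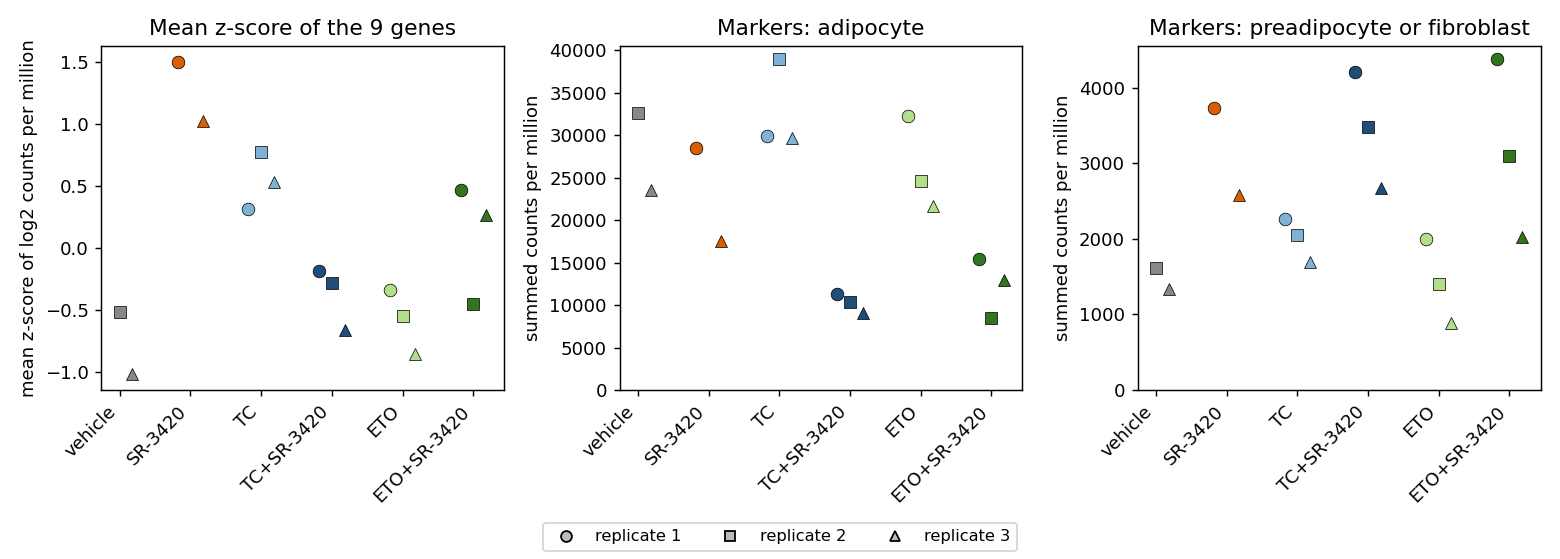
Mean z-score of the log2 CPM of the 9 genes (left) and summed CPM of the adipocyte (middle) and preadipocyte or fibroblast markers (right) in the 16 samples, with symbols for the replicate number. The score is 1.503 and 1.03 with SR-3420 and between 0.32 and 0.78 with TC, and ETO+SR-3420 replicate 2 (-0.45) lies apart from replicates 1 and 3 (0.47 and 0.27).

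How alike the 9 genes were across samples varied. The pairwise correlation of their log2 levels ran from 0.93 (Ffar4 with Slc25a34) to -0.31 (Enc1 with Rtn4rl2). The neighbours Slc25a34 and Tmem82 went together (r = 0.84), as did Enc1 and Fzd5 (r = 0.84). So did Enc1 and Tmem82 (r = 0.83) and Sema3g and Tle3 (r = 0.83), while Tle3 and Fzd5 had an r of 0.09. The correlation with the mean z-score was highest for Slc25a34 (r = 0.89) and lowest for Rtn4rl2 (r = 0.53). Each gene is part of that score, and the choice used many of these samples, so positive values are built in. Of the genes outside the 9, the 10 most like the mean z-score over the 16 samples were Bcl6, a transcriptional repressor (r = 0.92), Mfap1b (0.87), Cpt1b (0.86), Abi3 (0.86), Cyp4f17 (0.86), Ptrf (0.85), Ppapdc1b (0.84), Egln3 (0.84), Atg101 (0.84) and Slc41a1 (0.83). Cpt1b encodes the form of carnitine palmitoyltransferase 1 of muscle and brown fat, a target of etomoxir, and had 25 to 83 counts per sample. Its log2 fold changes with SR-3420 were 0.63 without inhibitor, -0.67 (SE 0.20) with TC and 0.13 with ETO. The first and last of these did not pass (edgeR adjusted p = 0.136 and 0.678). Cpt1a, another form, was more abundant (median 109 CPM against 2.92 CPM) and had values of 1.09, 0.50 and 0.43, in the same order. Over the 6 group means, Mfap1b alone of the 10 genes named stayed among the 10 most alike.

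The genes nearest the other members are described by their own values and calls, and their difference from the members was not tested. Rbp4, a retinol carrier that lies 2356 bases from Ffar4, fell with SR-3420 in the presence of TC (log2 fold change -0.88, SE 0.27, edgeR adjusted p = 0.0207) and had values of 0.39 without inhibitor and -0.41 with ETO, neither of which passed. Ppargc1b, a coactivator of nuclear receptors 93362 bases from Arhgef37, had values of 1.06 (SE 0.32, edgeR adjusted p = 0.0598), -0.35 and 0.08, in the same order. Uaca, next to Tle3 at 491995 bases, rose in all 3 comparisons (0.55, 0.50 and 0.51), and Rplp1 on the other side of Tle3 passed in none. Phf7, next to Sema3g, fell with TC (-1.43, SE 0.20) and ETO (-0.99, SE 0.19), and Tnnc1 passed in none. Arhgef28, next to Enc1, rose with TC (1.18, SE 0.25) and ETO (1.05, SE 0.24), and Plekhm3, next to Fzd5, rose with TC (0.69, SE 0.17). Cep55, Csnk1a1, Slc43a1, Slc43a3 and Ccnyl1, which also lie next to members, passed in none of the 3 comparisons. No gene of the table overlapped any of the 9.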

How the data were processed

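RNA-seq of 16 samples of BAT-LgT brown adipocytes was analysed from the gene counts deposited by the authors. Per the study's methods and the submitters' processing notes, the authors mapped reads with STAR 2.4.2a to the mm9 build, kept 1 read per position and length with HOMER and counted reads per gene with iRNA-seq, without normalization; the removal of repeated positions limits the counts of short abundant genes. The strand setting is not given in the sources used here. Replicates were compared, and none were identical or differed by less than sampling noise.

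The members and gene lists were chosen with earlier results of these data known. Counts of 20295 genes were filtered with filterByExpr, TMM-normalised and fitted with 6 group means in edgeR 4.0.16 (R 4.3.3), and p-values of the quasi-likelihood test received the Benjamini-Hochberg adjustment across the 12786 genes kept, with a threshold of 0.05. Standard errors were taken from the log2 fold change and the F statistic, and intervals as 1.96 standard errors. The members were tested only in the response to SR-3420 with etomoxir. The test was checked on counts drawn from the means of these samples, where 2-fold changes were often missed and 4-fold changes mostly found, and where DESeq2 made more false calls than edgeR.

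Named beside the members were the list genes with the 4 largest changes among those called in a comparison, table genes within 100 kb of Slc25a34 or Tmem82 and genes among the nearest on either side of the others, the 10 genes most like the mean z-score of the members (log2 of CPM with 1 added), and cell type markers. Exons came from the GENCODE annotation of the same build. Alternatives were DESeq2's size factors, DESeq2 1.42.0, other filters on low counts, a fit of the compared groups alone, a block for the replicate number, each sample left out, and counts scaled by size factors. Plots were drawn with matplotlib 3.10.9.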

Additional observations from a re-analysis of the deposited data

Results flagged for a closer look

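For 5 of the 9 genes the response to SR-3420 had opposite directions without inhibitor and with triacsin C in every sample: all SR-3420 samples lay above vehicle, and all TC+SR-3420 samples lay below TC. The response with TC minus that without inhibitor was -3.99 on the log2 scale for Ffar4, -3.40 for Slc25a34, -4.25 for Tmem82, -1.38 for Enc1 and -1.37 for Fzd5. These differences were not tested, because the genes were chosen for them. Of all genes tested, 22.8% had every SR-3420 sample above vehicle, and 28.5% had every TC+SR-3420 sample below TC. The share of all genes with both was not counted.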

How the results depend on the processing

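With SR-3420 and etomoxir, the count of members raised, 3 in the test as reported, was 2 to 4 under the alternatives, and no member was lowered under any of them. Sema3g and Tle3 passed throughout. Fzd5 did not pass with no filter, with only the compared groups or with any of 5 samples left out, and Rtn4rl2 passed with DESeq2, with the replicate block and without ETO replicate 1. Over all genes, 1597 were raised and 1637 lowered. With only the compared groups, the counts were 620 and 585, whereas with TC that fit gave 2763 raised and 2840 lowered in place of 2208 and 2514. Leaving out 1 sample gave 1041 to 1605 raised and 948 to 1716 lowered, the lowest of both without ETO+SR-3420 replicate 2. Samples of different groups with the same replicate number share only a number in the labels: the correlation of their deviations from the group means was over 0.1 in 27 of 35 pairs, against 25 of 71 pairs with different numbers, and 12 of 16 samples correlated best with a sample of their own number, which is a hint from the data and not from the design. With the replicate number as a block, the counts were 2897 and 2879 over all genes, and 4 members were raised, Rtn4rl2 with an adjusted p of 0.00647. Without inhibitor the block gave 1423 raised and 1015 lowered over all genes, where the reported counts were 607 and 357, and with TC 3515 raised in place of 2208. The median log2 fold change of the members with SR-3420 alone was 1.46 to 2.10 with 1 sample left out, the lowest without SR-3420 replicate 1. That of ETO against vehicle ran from -0.21 (without vehicle replicate 3) to 0.21. The median of the ETO response minus the SR-3420 response ran from -1.26 (without ETO+SR-3420 replicate 1) to -0.52 (without ETO replicate 1). For single members, the value of ETO+SR-3420 against SR-3420 for Fzd5 changed sign without SR-3420 replicate 3 (-0.18) and was 0.42 without replicate 1, as did the ETO response minus the SR-3420 response of Tle3 without SR-3420 replicate 1 (0.13, and -0.46 without replicate 3); the cause was not tested. Where a sample was left out of a group of 2, the lone sample was assumed to vary like the other groups. List counts moved by over 1.5 times too: PPAR targets lowered with ETO were 12, but 4 with only the compared groups and 5 without ETO+SR-3420 replicate 2, and those raised without inhibitor were 7, but 3 with only the compared groups. With the block, PPAR targets lowered without inhibitor were 9 in place of 1. The other 4 lists together had 2 raised without inhibitor (8 with the block, 0 with only the compared groups). With TC they had 10 lowered (17 with the block, 5 without TC replicate 2). With ETO they had 7 raised and 4 lowered, against 17 and 12 with the block and 4 and 2 with only the compared groups. The count raised with ETO was also 4 without ETO replicate 2 and without ETO+SR-3420 replicate 2. On the size factor scale 62 of 63 comparisons of member levels kept the same separation of samples; the exception was Enc1 between ETO+SR-3420 and SR-3420. With 2 or 3 samples a group and 13 to 157 counts for Tmem82 and Arhgef37, small changes were not detectable.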
